A study of Mus musculus with 12 samples.

Results

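Type I interferon response genes were followed as a set of 39 genes in a table of 55421 gene rows. They were chosen by symbol, as genes that type I interferon is known to induce or that carry its signal, and each of the 39 symbols had a row. Type I interferons bind a receptor made of IFNAR1 and IFNAR2, whose kinases JAK1 and TYK2 switch on a transcription factor that includes STAT2 and IRF9. It binds the interferon-stimulated response element in promoters and induces sensors of viral RNA, antiviral effectors and feedback inhibitors. T cells also keep a part of these genes on without acute infection, and interferon acts on CD8 T cells during priming, expansion and contraction.

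RNA was sequenced from OT-I cells, CD8 T cells with a transgenic receptor for an ovalbumin peptide, which were wild-type (WT) or knockout (KO) for Rroid2. The cells had been transferred into host mice infected with Listeria monocytogenes engineered to express ovalbumin, and were recovered from spleen by sorting. No uninfected group was analysed here, and all 6 groups are OT-I cells transferred into infected hosts. Short-lived effector cells (SLEC) were taken on days 7 and 14 and memory precursor effector cells (MPEC) on day 14, each from both genotypes, giving 6 groups of 2 libraries. The sources used here do not give the age of the mice, the sort gates or the extent of the Rroid2 deletion. They also do not state whether both libraries of a group came from separate animals, so that p-values reflect only how libraries vary, which may be technical.

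The libraries held 7603551 to 14026594 counts, and no row bore the symbol Rroid2, so the knockout itself could not be read from these counts. Levels are in CPM, counts per 1000000 counts of the library after scaling for composition. Klrg1, by convention high in SLEC, stood at 132 to 321 CPM in the 8 SLEC libraries and 1.33 to 3.74 CPM in the 4 MPEC libraries. Il7r, which encodes CD127 and is by convention high in MPEC, stood at 14.1 to 71.7 CPM in SLEC and 760 to 1037 CPM in MPEC. The defining CD8 T cell genes were present in every library, with a sum over 7 genes of 4097 to 5707 CPM. The WT SLEC day 14 libraries stood apart in carrying RNA of other cells: 17 B cell genes summed to 931 CPM in replicate 1 and 3280 CPM in replicate 2, against 29.7 to 445 CPM in the other 10 libraries, and 12 monocyte and macrophage genes to 93.6 and 122 CPM against 7.97 to 38.2 CPM.

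Promoters are shown first because the response element is what many of these genes share. The RefSeq promoter table (GRCm38.p6, 250 bases before to 50 after each start) held an entry for 29 of the 39 genes. The letters GAAA, then any 2 bases (NN), then GAAA, a core of the response element, were searched on both strands. They were present in 15 of 29 members (51.7%) and in 3.99% of all 27025 genes with an entry, and 2 or more matches, which may overlap each other, were present in 6 members (20.7%) and in 0.266% of all genes. The letters TTCNNNGAA, a core of the gamma-activated site, were present in 6 of 29 members (20.7%) and in 9.55% of all genes. A match is a description of the letters, not a bound site.

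Windows around the matches are given for genes on which the results turn, 5′ to 3′ on the gene's strand, with the matches in capitals (runs that start with TTTC are the core on the opposite strand). Isg15 is at chr4:156200855-156200916, minus strand, with 3 overlapping matches; Ifit1 at chr19:34640765-34640833, plus strand; Oas3 at chr5:120777705-120777754, minus strand; Rsad2 at chr12:26456543-26456592, minus strand; Bst2 at chr8:71537567-71537622, minus strand. Slfn5 is at chr11:82951927-82951976, plus strand, and Stat2 at chr10:128270256-128270305, plus strand. Ifit3, at chr19:34583353-34583436, and Ifit3b, at chr19:34607749-34607832, both on the plus strand, are near-identical neighbours and their windows are the same sequence, printed once; reads of these 2 genes may have been split between them, so both values are uncertain.
Isg15: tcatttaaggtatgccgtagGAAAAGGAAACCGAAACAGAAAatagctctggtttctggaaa
Ifit1: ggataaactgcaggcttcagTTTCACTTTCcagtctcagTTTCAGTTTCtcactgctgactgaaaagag
Oas3: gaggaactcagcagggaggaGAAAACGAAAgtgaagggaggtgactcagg
Rsad2: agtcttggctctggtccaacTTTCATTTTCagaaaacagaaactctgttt
Bst2: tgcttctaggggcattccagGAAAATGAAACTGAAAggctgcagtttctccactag
Slfn5: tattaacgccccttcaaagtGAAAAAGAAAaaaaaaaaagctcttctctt
Stat2: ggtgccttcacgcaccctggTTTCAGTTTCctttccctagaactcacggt
Ifit3 and Ifit3b: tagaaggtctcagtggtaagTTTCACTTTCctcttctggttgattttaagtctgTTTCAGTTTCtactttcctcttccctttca

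The interferon genes were not silent in these cells. Per kilobase of exon, the mean over 12 libraries was highest for Slfn1, a Schlafen gene linked to T cell growth control, at 59.2 CPM per kb, followed by Dtx3l, a ubiquitin ligase, at 43.0 and Ifi27l2a at 32.0 CPM per kb. The RNA sensor Ddx58 stood at 15.9 CPM per kb, Isg15 at 10.3, Ifit1 at 5.53 and Rsad2 at 1.64. The lowest were Oas2 at 0.325 CPM per kb, Mx2 at 0.418 and Ifi44 at 0.0359. Ifi44 had 35 counts over all libraries and at most 0.759 CPM in any; it failed the filter on low counts, so 38 of the 39 members were tested among 14460 genes. Mx1 and Mx2 are annotated as polymorphic pseudogenes, and the other 37 members as protein coding.

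How far a member varied between groups differed widely. The highest group mean exceeded the lowest 24.2-fold for Slfn5, 20-fold for Oasl2, 16.5-fold for Oas2 and 7.67-fold for Rsad2. It exceeded it by 1.24-fold for Xaf1, 1.28-fold for Irf9 and 1.30-fold for Irf7. The lowest means of Oas2 and Oasl2 rest on 4 and 13 counts in KO SLEC day 14. Members with 3 or fewer counts in a group were given no ratio. Mx2 was among them, with group means from 0.112 CPM in KO SLEC day 7 to 4.23 CPM in KO MPEC day 14. All members together summed to 1731 to 2071 CPM in the 8 SLEC libraries and 2523 to 2690 CPM in the 4 MPEC libraries, without overlap. In bulk RNA, a larger share of cells with a gene on and more RNA per cell cannot be told apart.

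**Figure D1:**
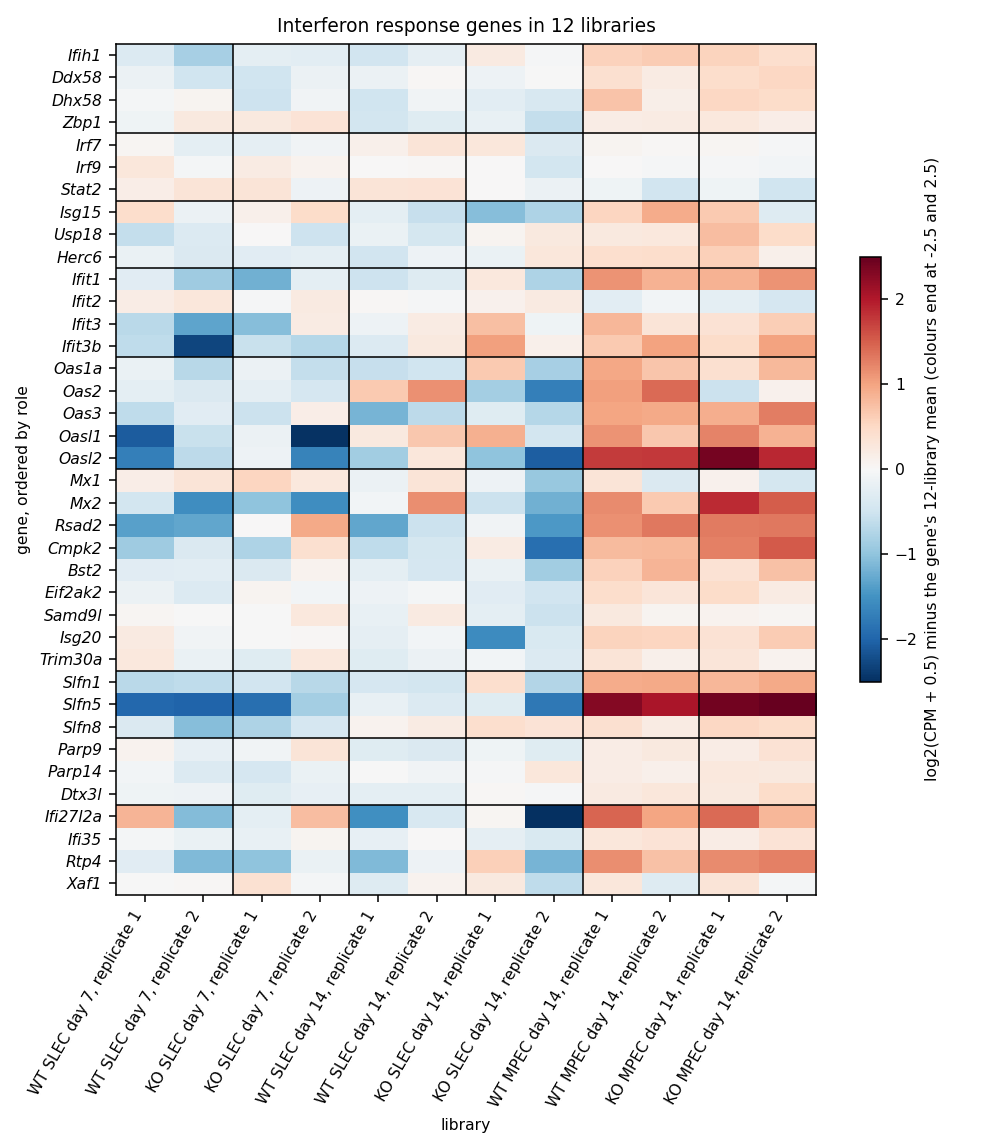
Each cell is the log2(CPM + 0.5) of a gene (vertical axis, ordered by role) in a library (horizontal axis) minus that gene's mean over 12 libraries, with colours ending at -2.5 and 2.5. The 4 MPEC columns at the right are higher than the 8 SLEC columns for 17 of the 38 tested genes, and below them for Ifit2.

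The comparison of MPEC with SLEC on day 14 asks how the response genes differ between memory precursors and effectors of the same day. In WT cells 13 of 38 members rose in MPEC and 0 fell, where a call is an edgeR quasi-likelihood adjusted p below 0.05; among all tested genes 3.66% were called higher and 7.96% in either direction. In KO cells 8 members rose and 0 fell, against 2.90% of all genes called higher and 5.11% in either direction. Falls were called for 4.30% of all genes in WT and 2.21% in KO. The median log2 change over the members was 0.57 in WT and 0.56 in KO, where the median of all genes was -0.00 in both, and 33 members in WT and 36 in KO were positive, against 49.5% and 49.1% of all genes. The 2 MPEC libraries lay above the 2 SLEC libraries for 29 members in WT and 26 in KO, and below for 3 and 1; among all genes the groups lay apart with MPEC higher for 28.2% and 23.5% and with MPEC lower for 29.1% and 23.2%.

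The WT and KO comparisons share no library, so their calls can be set beside each other. The calls are not independent, because all 6 groups share the estimate of the spread. Oas3, Oasl2, Rsad2, Slfn1 and Slfn5 were called in both genotypes, 5 of the 38 members tested, while 2.01% of all tested genes were called higher in both. These 5 are 38.5% of the WT calls and 62.5% of the KO calls. Those shares are of calls and are not to be set against the 2.01%. Of all tested genes 3.66% were called higher in WT and 2.90% in KO. The MPEC libraries were apart from and above the SLEC libraries in both genotypes for 23 members, against 13.6% of all genes, and below in both for Ifit2, against 12.8% of all genes. For 17 members each of the 4 MPEC libraries lay above all 8 SLEC libraries, those of day 7 included, against 5.77% of all genes: Ifih1, Ddx58, Dhx58, Usp18, Ifit1, Oas3, Oasl2, Rsad2, Cmpk2, Bst2, Eif2ak2, Isg20, Slfn1, Slfn5, Dtx3l, Ifi35 and Rtp4. Ifit2 was the member for which each of the 4 lay below all 8, against 4.52% of all genes. The difference in the MPEC change between WT and KO was tested and called for 0 members.

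**Figure D2:**
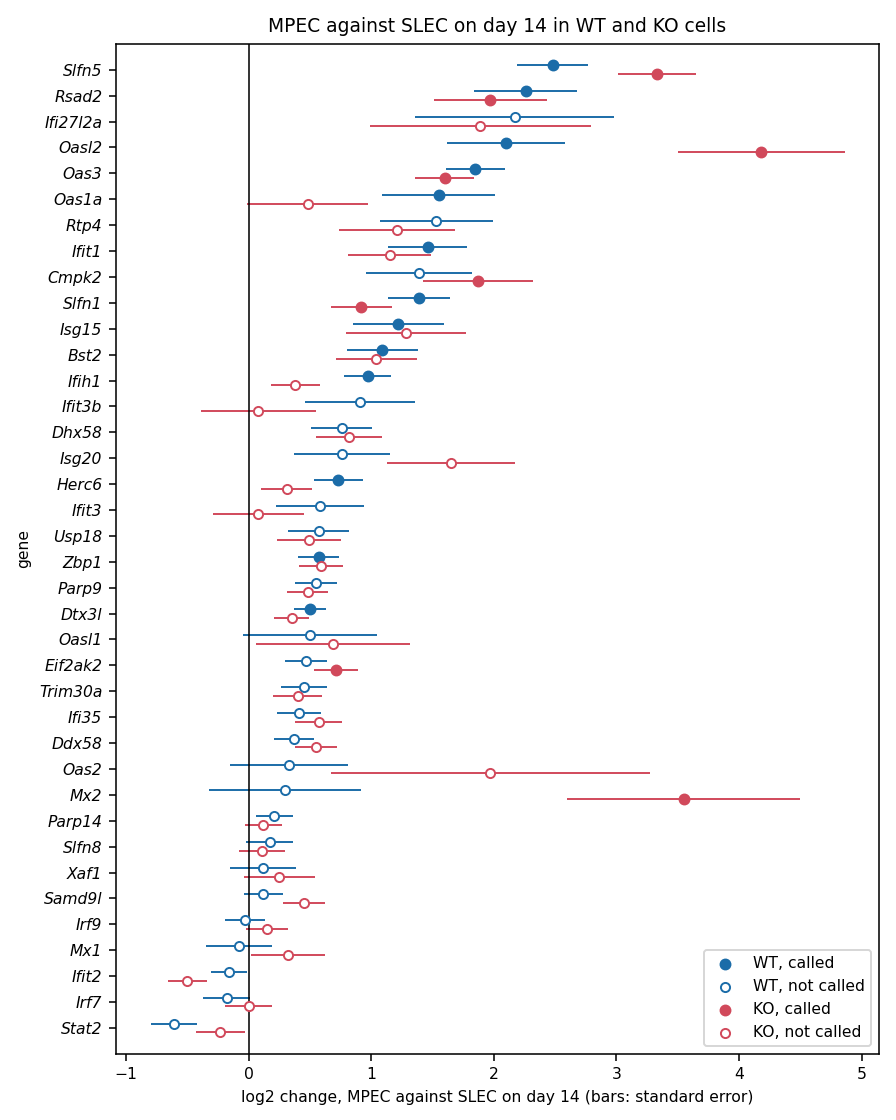
Points give the log2 change of MPEC against SLEC on day 14 (horizontal axis) for each tested gene (vertical axis, ordered by the WT value) with its standard error, in WT (blue) and KO (red) cells; filled points were called. Slfn5 is highest in WT at 2.48 and Oasl2 in KO at 4.18, and no filled point lies left of 0.

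Among the sensors of foreign nucleic acid, Ifih1, which detects long double-stranded RNA, stood at 24.1 and 28.7 CPM in WT SLEC and 50.7 and 52.8 CPM in WT MPEC on day 14. In KO it stood at 39.7 and 33.0 CPM in SLEC and 49.8 and 45.3 CPM in MPEC. The MPEC libraries were above the SLEC libraries in both genotypes, but the gap was wider in WT, with a log2 change of 0.97 ± 0.19 (standard error (SE), edgeR adjusted p = 0.0048) and 0.38 ± 0.20 in KO (adjusted p = 0.36); this difference between genotypes was not called. Zbp1, a sensor of Z-form nucleic acids, rose in WT by 0.57 ± 0.17 on the log2 scale (edgeR adjusted p = 0.045) and had 0.59 ± 0.18 in KO (adjusted p = 0.063). Ddx58, which senses viral RNA ends, and Dhx58, which tunes both RNA sensors, had positive values of 0.37 and 0.76 in WT and 0.55 and 0.82 in KO, uncalled.

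Of the pathway's own transcription factors 0 of 3 were called in either genotype, with a median log2 change of -0.18 in WT and 0.00 in KO. Stat2, a subunit of the factor that binds the response element, stood at 70.9 and 72.1 CPM in WT SLEC and 52.4 and 40.7 CPM in WT MPEC, and at 57.3 and 51.0 CPM in KO SLEC and 52.8 and 40.1 CPM in KO MPEC. The WT groups did not overlap and SLEC was the higher; the KO groups overlapped. Its log2 change was -0.61 ± 0.19 in WT (edgeR adjusted p = 0.058) and -0.23 ± 0.20 in KO (adjusted p = 0.64). Irf9 had -0.03 ± 0.16 and 0.15 ± 0.17, and Irf7, the factor that amplifies interferon production, -0.18 ± 0.19 and 0.00 ± 0.19.

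In the ISG15 system, Isg15, a ubiquitin-like modifier, was at 5.96 and 4.62 CPM in WT SLEC and 10.6 and 14.1 CPM in WT MPEC, and at 3.14 and 3.99 CPM in KO SLEC and 11.5 and 5.66 CPM in KO MPEC. Every MPEC value was above every SLEC value of its genotype, though KO MPEC replicate 2 was close to the SLEC range. The log2 change was 1.22 ± 0.37 in WT (edgeR adjusted p = 0.049) and 1.28 ± 0.49 in KO (adjusted p = 0.17). Herc6, the ligase for ISG15 in mice, rose by 0.73 ± 0.20 in WT (edgeR adjusted p = 0.032) and had 0.31 ± 0.21 in KO; a predicted gene on the same strand overlaps 13.7% of its exons, so part of its reads may not be its own. Usp18, which removes ISG15 and restrains the receptor, had 0.57 in WT and 0.49 in KO, uncalled.

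The IFIT genes, whose proteins bind viral RNA, split. Ifit1 stood at 8.61 and 10 CPM in WT SLEC and 27.9 and 23.4 CPM in WT MPEC, and at 15.2 and 7.15 CPM in KO SLEC and 23.4 and 28.0 CPM in KO MPEC. MPEC was higher in both genotypes without overlap, with a log2 change of 1.46 ± 0.32 in WT (edgeR adjusted p = 0.0084) and 1.15 ± 0.34 in KO (adjusted p = 0.062). Ifit2 went the other way: 95.6 and 91.5 CPM in WT SLEC against 77.6 and 89.8 CPM in WT MPEC, and 101 and 110 CPM in KO SLEC against 79.2 and 69.6 CPM in KO MPEC. Its log2 change was -0.16 ± 0.15 in WT and -0.50 ± 0.16 in KO (edgeR adjusted p = 0.61 and 0.077), so neither passed. Ifit3 and Ifit3b, uncertain as near-identical copies, had 0.58 and 0.91 in WT and 0.08 and 0.08 in KO, uncalled.

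The OAS genes encode oligoadenylate synthetases, which activate RNase L, and relatives that lack this activity; 3 of 5 rose in WT and 2 of 5 in KO. Oas3 stood at 29.1 and 41.4 CPM in WT SLEC and 130 and 126 CPM in WT MPEC. In KO it stood at 53.1 and 40.0 CPM in SLEC and 124 and 159 CPM in MPEC. MPEC was far above SLEC in both genotypes, by 1.85 ± 0.24 in WT (edgeR adjusted p = 1.5e-04) and 1.60 ± 0.24 in KO (adjusted p = 6.6e-04) on the log2 scale. Oasl2 stood at 1.25 and 3.42 CPM in WT SLEC and 10.3 and 10.5 CPM in WT MPEC, and at 1.11 and 0.275 CPM in KO SLEC and 16.4 and 11.4 CPM in KO MPEC. MPEC was above SLEC in both genotypes without overlap, with a log2 change of 2.10 ± 0.48 in WT (edgeR adjusted p = 0.0096) and 4.18 ± 0.68 in KO (adjusted p = 8.2e-04), the KO value resting on 13 counts in KO SLEC. Oas1a rose in WT by 1.55 ± 0.46 (edgeR adjusted p = 0.046) and had 0.48 ± 0.49 in KO. Oas2 had 0.33 ± 0.48 and 1.97 ± 1.30, and Oasl1 0.50 ± 0.55 and 0.69 ± 0.63, uncalled.

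Of the other antiviral effectors, Rsad2 (viperin), which makes a chain-terminating nucleotide, stood at 1.84 and 3.48 CPM in WT SLEC and 12.2 and 13.9 CPM in WT MPEC, and at 4.96 and 1.65 CPM in KO SLEC and 13.7 and 13.9 CPM in KO MPEC. The 4 MPEC values were alike and well above the SLEC values, by 2.26 ± 0.42 in WT (edgeR adjusted p = 0.0028) and 1.97 ± 0.46 in KO (adjusted p = 0.016). Its divergent neighbour Cmpk2, a mitochondrial nucleotide kinase, had 1.39 ± 0.43 in WT (adjusted p = 0.059) and rose in KO by 1.87 ± 0.45 (adjusted p = 0.021). Mx2, an antiviral GTPase, had 0.883 and 2.78 CPM in WT SLEC, 2.79 and 1.79 CPM in WT MPEC, 0.506 and 0.137 CPM in KO SLEC and 4.83 and 3.64 CPM in KO MPEC. Only the KO groups were apart, with a log2 change of 3.55 ± 0.95 (edgeR adjusted p = 0.028), resting on 6 counts in KO SLEC, against 0.30 ± 0.62 in WT. Bst2 (tetherin), which holds budding virus on the cell, rose in WT by 1.09 ± 0.29 (edgeR adjusted p = 0.025) and had 1.04 ± 0.33 in KO (adjusted p = 0.082). Eif2ak2, the kinase PKR that halts translation on double-stranded RNA, rose in KO by 0.71 ± 0.18 (edgeR adjusted p = 0.030) and had 0.47 ± 0.17 in WT. Isg20, an RNA exonuclease, had 0.76 ± 0.39 in WT and 1.65 ± 0.52 in KO, uncalled. Mx1, Samd9l and Trim30a had log2 values between -0.08 and 0.45 in both genotypes, uncalled.

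The Schlafen genes held the member with the largest change in WT, Slfn5. It stood at 18.0 and 16.1 CPM in WT SLEC and 103 and 86.6 CPM in WT MPEC, and at 16.5 and 5.63 CPM in KO SLEC and 112 and 121 CPM in KO MPEC. It was several times higher in each MPEC library than in any SLEC library, with a log2 change of 2.48 ± 0.29 in WT (edgeR adjusted p = 8.2e-05) and 3.33 ± 0.32 in KO (adjusted p = 1.5e-05). An antisense gene overlaps 8.8% of its exons and no source used here says whether the counting used strand, so reads of the 2 cannot be told apart. Slfn1 stood at 73.1 and 70.5 CPM in WT SLEC and 186 and 189 CPM in WT MPEC, and at 131 and 58.7 CPM in KO SLEC and 174 and 188 CPM in KO MPEC. The KO SLEC replicates differed more than 2-fold, yet both lay below MPEC, and the rise was 1.39 ± 0.25 in WT (edgeR adjusted p = 0.0038) and 0.92 ± 0.25 in KO (adjusted p = 0.049). Slfn8 had 0.17 ± 0.19 and 0.11 ± 0.19, uncalled.

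Dtx3l and Parp9, partner proteins that modify chromatin at interferon genes, had log2 changes of 0.50 ± 0.13 and 0.55 ± 0.17 in WT, of which Dtx3l passed the test (edgeR adjusted p = 0.027), and 0.35 ± 0.14 and 0.48 ± 0.17 in KO. Their exons overlap head to head, over 8.0% of Dtx3l and 9.4% of Parp9, so their reads may be shared. Parp14 had 0.21 and 0.12. Of Ifi27l2a, Ifi35, Rtp4 and Xaf1, 0 of 4 were called in either genotype, with values from 0.12 to 2.17 in WT and 0.25 to 1.89 in KO; predicted genes overlap 16.8% of the exons of Ifi35 and 13.9% of those of Rtp4.

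The counts of called members depend on single libraries. Calls over all genes are not given for these fits, and a group with 1 library left weakens the test for every gene. The drops are therefore not read as particular to the members. The WT count of 13 became 4 without WT SLEC day 14 replicate 1, 6 without its replicate 2, and 5 without either WT MPEC library; the KO count of 8 became 3 without KO SLEC day 14 replicate 2 or either KO MPEC library. Slfn5 and Oas3 passed in both genotypes, and Slfn1 in WT, under each of the 20 alternatives run, whereas in WT Zbp1 and Isg15 passed under 7 and Oas1a under 8 of them, and in KO Slfn1 passed under 6 and Eif2ak2 under 11. B cell genes summed to more in SLEC than in MPEC in WT (931 and 3280 CPM against 445 and 150 CPM) and to less in KO (75.2 and 29.7 CPM against 128 and 144 CPM). With a term for B cell RNA 5 members were called in WT and 3 in KO, and the medians were 0.76 and 0.53; its part was not otherwise tested.

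**Figure D3:**
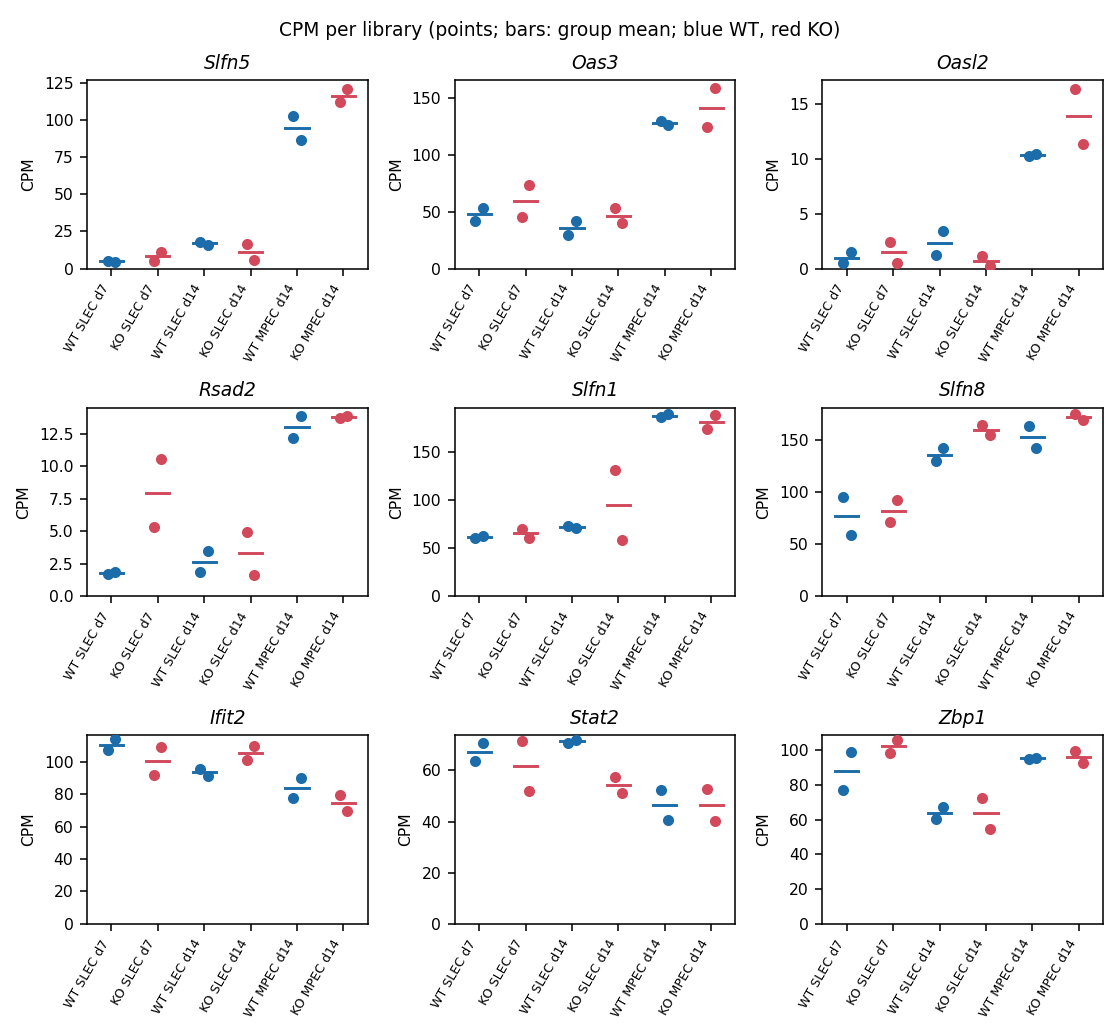
CPM (vertical axis, from 0) of 9 genes in each library (points) and as the group mean (bars), with WT in blue and KO in red. Slfn5, Oas3, Oasl2, Rsad2 and Slfn1 are highest in the 4 MPEC libraries; Slfn8 differs by day, and Ifit2 is lowest in MPEC.

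The matches in the promoters can be set beside these calls. Of the 14 members with an entry that were called higher in MPEC in either genotype, 9 (64.3%) held the response element core, and of the 14 with an entry that were tested and not called, 6 (42.9%) did. Slfn5, with 1 match, had the largest WT change, and Isg15, with 3, a smaller one. Stat2 and Ifit3 carry the core and were not called.

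Between day 7 and day 14 few members changed in SLEC, and the largest called rises were of Schlafen genes. In WT 2 of 38 members rose and 0 fell, against 9.94% of all genes called, 4.69% higher and 5.25% lower; in KO 1 rose and 3 fell, against 17.2% of all genes called, 7.70% higher and 9.50% lower. Counted in either direction, the calls of neither genotype were above the share called among all genes, and the 2 rises in WT were near the 4.69% called higher. The day groups lay apart with day 14 higher for 12 members in WT and 8 in KO, and lower for 7 and 11, against 27.1% and 28.4% of all genes higher and 24.3% and 29.0% lower.

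Slfn5 stood at 4.93 and 4.76 CPM in WT on day 7 and 18.0 and 16.1 CPM on day 14. In KO it stood at 5.21 and 11.2 CPM and then 16.5 and 5.63 CPM. The WT groups were apart and the KO groups overlapped. Its log2 change was 1.81 ± 0.38 in WT (edgeR adjusted p = 0.0079) and 0.56 ± 0.41 in KO (adjusted p = 0.38). Slfn8 stood at 95.3 and 58.7 CPM in WT on day 7 and 130 and 142 CPM on day 14. In KO it stood at 71.4 and 92.3 CPM and then 164 and 155 CPM. It was the member called in both genotypes, with 0.82 ± 0.19 in WT (edgeR adjusted p = 0.011) and 0.97 ± 0.19 in KO (adjusted p = 0.0024), and day 14 was above day 7 in every library. These comparisons share the SLEC day 14 libraries with MPEC against SLEC.

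In KO SLEC, Zbp1 stood at 98.6 and 106 CPM on day 7 and 72.8 and 54.6 CPM on day 14 and fell by 0.68 ± 0.17 on the log2 scale (edgeR adjusted p = 0.013). In WT it stood at 77.0 and 99.1 CPM and then 60.6 and 67.6 CPM, a log2 change of -0.46 ± 0.17 that did not pass (adjusted p = 0.099). Day 14 was the lower in every library of both genotypes. Samd9l, which restrains viral translation, stood at 154 and 185 CPM and then 131 and 106 CPM in KO, a fall by 0.51 ± 0.17 (edgeR adjusted p = 0.045). Mx1 stood at 52.3 and 43.2 CPM and then 32.6 and 18.3 CPM, a fall by 0.89 ± 0.29 (adjusted p = 0.049). In WT these 2 genes overlapped between the days, with log2 values of 0.03 and -0.14. KO SLEC day 14 replicate 2, the shallowest library, held the lowest value of each of the 3.

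The WT count of 2 became 4 without WT SLEC day 7 replicate 1, 0 without its replicate 2 and 1 without WT SLEC day 14 replicate 2, and 0 with a term for B cell RNA. The KO count of 4 became 2 without KO SLEC day 7 replicate 2, KO SLEC day 14 replicate 2 or either KO MPEC library, and the KO call of Slfn8 passed under each of the 20 alternatives run.

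The KO comparison within each population asks what loss of Rroid2 does to the response genes. No member was called: 0 of 38 on day 7 in SLEC, where 0.0277% of all genes were called, 0 in SLEC on day 14 (0.539%), 0 in MPEC (0.0138%) and 0 for the mean of the 3 populations (0.0830%). These counts are from edgeR; DESeq2 also gave 0 in each, and at an unadjusted p below 0.05 edgeR gave 1, 4, 1 and 3 members and DESeq2 2, 5, 1 and 4, where 3.37%, 12.5%, 2.46% and 8.26% of all genes had such a p by edgeR. The median log2 change over the members was 0.10, 0.01, -0.02 and 0.07. The KO libraries lay apart above WT for 4, 6 and 9 members and below for 2, 9 and 2 in the 3 populations, against 11.2%, 21.9% and 14.2% of all genes above and 12.2%, 25.7% and 15.9% below.

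For the 29 members with a mean of 10 CPM or more, the fitted KO change averaged over the populations ran from -0.20 for Mx1 to 0.42 for Cmpk2 on the log2 scale, with a median SE of 0.12. Within a population 27, 26 and 28 of the 29 fitted values lay within 0.5 either way, with median SEs of 0.21, 0.20 and 0.20. These are fitted values and not limits: Cmpk2, with SEs of 0.49, 0.51 and 0.37 within the populations and 0.27 for their average, could differ by more. A p that misses the threshold does not show that WT and KO levels are the same.

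Rsad2 in SLEC on day 7 stood at 1.75 and 1.84 CPM in WT and 5.36 and 10.6 CPM in KO; the groups were apart and the KO pair was spread widely, with a log2 change of 2.09 ± 0.52 (edgeR adjusted p = 0.92, and 0.022 with no filter on low counts, the alternative under which it was called). Cmpk2, transcribed beside it, had 5.17 and 7.68 CPM in WT and 5.65 and 13.3 CPM in KO, with overlap. Slfn5 on day 7 had 0.70 ± 0.44 (adjusted p = 1). Oas2 in SLEC on day 14 stood at 2.06 and 3.10 CPM in WT and 0.405 and 0 CPM in KO, the KO pair holding 4 counts in all, and had -3.43 ± 0.98 (edgeR adjusted p = 0.11). In MPEC it stood at 2.79 and 3.86 CPM in WT and 0.616 and 1.25 CPM in KO, a log2 change of -1.79 ± 0.66 (adjusted p = 1), and on day 7 at 0.874 and 0.768 CPM in WT and 0.893 and 0.714 CPM in KO. Oas2 was thus lower in KO, without overlap, on day 14 in both populations and overlapped on day 7; its change averaged over the populations was -1.74 ± 0.52 (edgeR adjusted p = 0.35). In WT SLEC day 14, where Oas2 was higher than on day 7, B cell genes summed to 931 and 3280 CPM, and their part in this was not tested.

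Samd9l in SLEC on day 14 stood at 136 and 182 CPM in WT and 131 and 106 CPM in KO, with -0.42 ± 0.17 (edgeR adjusted p = 0.29), and at 0.14 with a term for B cell RNA, which turns its direction. In MPEC Cmpk2 had 17.7 and 17.9 CPM in WT and 24.7 and 30.1 CPM in KO, apart, with 0.63 ± 0.37 (edgeR adjusted p = 1). The mean over the populations was 0.85 ± 0.29 for Rsad2 (edgeR adjusted p = 0.47).

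Signs of the KO change were positive in all 3 populations for 7 members, Usp18, Oas3, Rsad2, Cmpk2, Slfn8, Parp9 and Rtp4, against 13.9% of all genes, and negative in all 3 for Irf7, Stat2, Oas2 and Isg20, against 16.0%. For 0 members were the libraries apart in the same direction in all 3. Tests of whether the KO effect differs gave 0 calls among members for day 14 against day 7 in SLEC (0.00692% of all genes called) and 0 for MPEC against SLEC (0%); at an unadjusted p below 0.05 edgeR gave 4 and 2 members, and DESeq2, with 0 calls as well, 6 and 2, against 6.58% and 4.23% of all genes by edgeR. The smallest p-values were those of Oas2 (-3.42 ± 1.43) and Samd9l (-0.54 ± 0.24) for the days, and of Mx2 (3.25 ± 1.21) and Oasl2 (2.08 ± 0.98) for the populations, on the log2 scale, with edgeR adjusted p of 0.73, 0.73, 1 and 1.

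**Figure D4:**
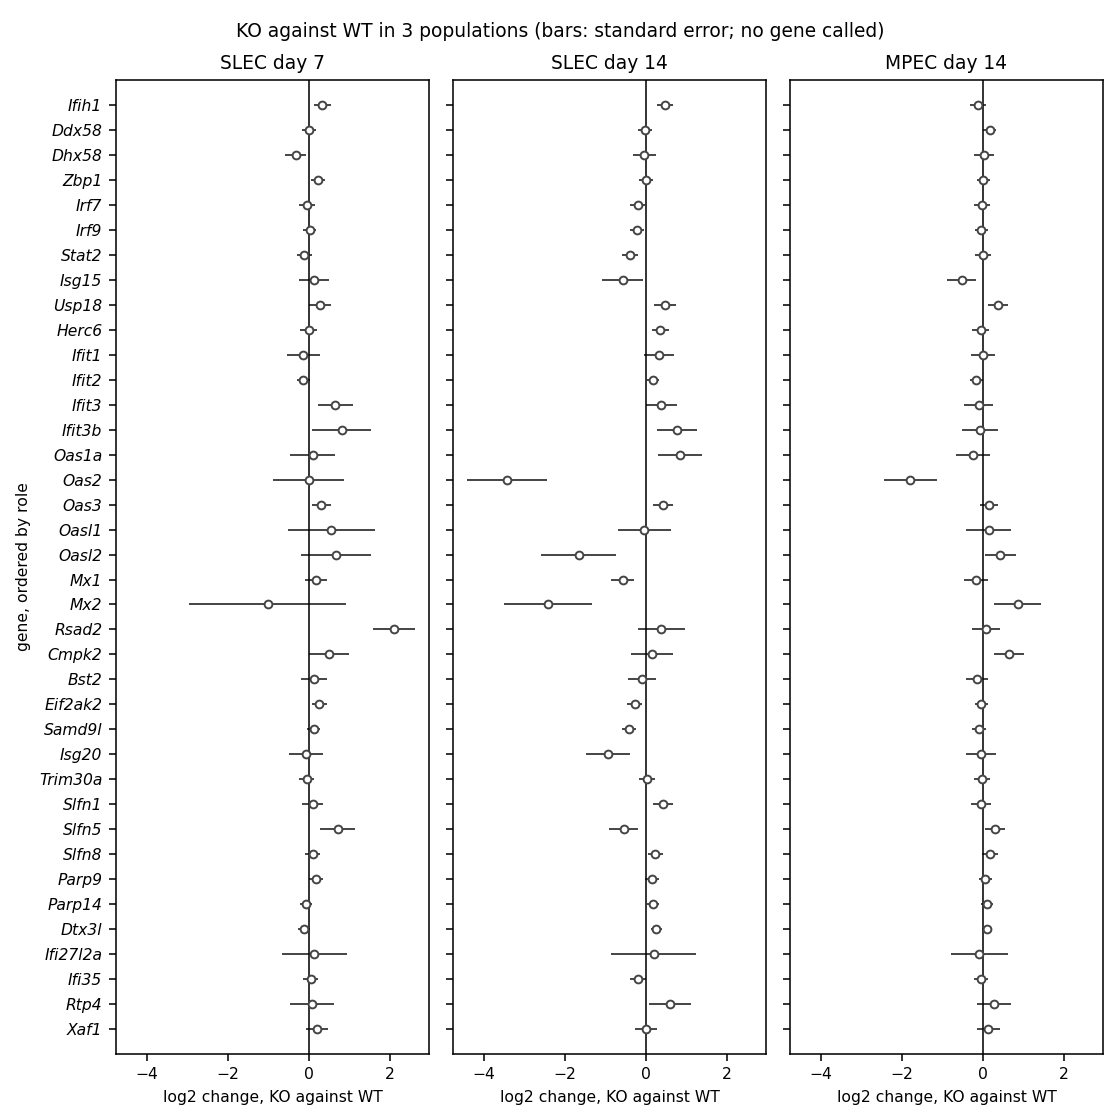
Points give the log2 change of KO against WT (horizontal axis) with its standard error for each tested gene (vertical axis, by role) in SLEC day 7, SLEC day 14 and MPEC day 14. The points lie around 0, with the widest bars at genes of few counts such as Mx2 and Oas2, and no gene was called.

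In KO SLEC day 14 the members differed between the replicates mostly in 1 direction. Replicate 1 was above replicate 2 for 31 of 38 members, with a median log2 difference of 0.44, where 50.7% of all genes were above. In WT SLEC day 14 replicate 1 was above replicate 2 for 9 of 38 members, with a median of -0.19. In the other pairs replicate 1 was above for 14 to 24. Il7r differed in the same direction between the KO SLEC day 14 replicates, 71.7 and 42.7 CPM, and its part in the difference was not tested. Both lay above WT SLEC day 14, at 28.6 and 25.6 CPM. Il7r was called higher in KO there, with a log2 change of 1.10 ± 0.24, where 0.539% of all genes were called. This call was at the threshold, with an edgeR adjusted p that rounds to 0.05. How this bears on comparisons that use KO SLEC day 14 was not tested. The median KO change in SLEC on day 14 was -0.39 without replicate 1 of KO SLEC day 14 and 0.13 without its replicate 2, and the median MPEC change in KO was 0.81 and 0.50.

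**Figure D5:**
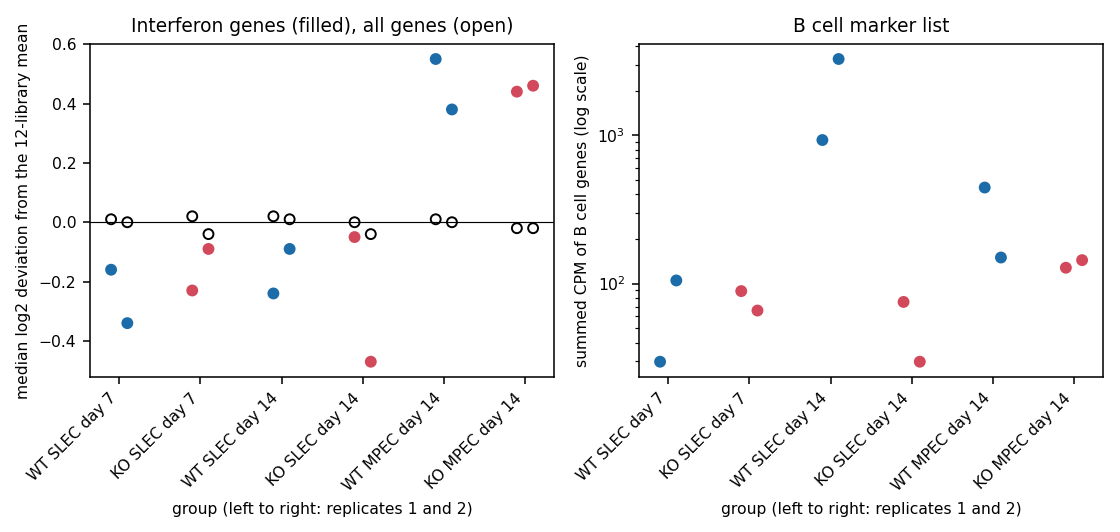
The left panel plots, for each library (WT blue, KO red), the median over tested members of the log2 deviation from the 12-library mean, with that of all genes as open circles; MPEC libraries lie at 0.38 to 0.55 and SLEC libraries at -0.47 to -0.05. The right panel plots the summed CPM of 17 B cell genes on a log scale, where the WT SLEC day 14 libraries, at 931 and 3280 CPM, lie above the others.

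Other genes of the interferon pathway were read from 5 further lists. Of the receptor, its kinases and factors, 12 of 12 were tested and in MPEC against SLEC 2 rose and 2 fell in each genotype. Among all genes 3.66% in WT and 2.90% in KO were called higher in MPEC, and 4.30% and 2.21% lower. Ifnar1 and Ifnar2, the receptor chains, had log2 changes of 0.24 ± 0.17 and 0.46 ± 0.17 in WT and 0.44 ± 0.18 and 0.36 ± 0.17 in KO, uncalled. Irf1 had -0.10 ± 0.17 and -0.05 ± 0.17.

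The inhibitors of cytokine signalling were the genes of that list that rose. Socs1 stood at 9.05 and 10.8 CPM in WT SLEC and 22.4 and 16.2 CPM in WT MPEC, and at 5.36 and 5.5 CPM in KO SLEC and 20.2 and 21.4 CPM in KO MPEC, apart in both, with 0.96 ± 0.29 (edgeR adjusted p = 0.046) and 1.94 ± 0.35 (adjusted p = 0.0024). Socs3 stood at 2.06 and 2.15 CPM in WT SLEC and 30.7 and 37.1 CPM in WT MPEC, and at 0.607 and 0.275 CPM in KO SLEC and 27.9 and 42.4 CPM in KO MPEC. It rose by 3.99 ± 0.44 in WT and 6.21 ± 0.67 in KO, the KO value resting on 8 counts in KO SLEC day 14. The kinase Tyk2 fell by 1.28 ± 0.15 in WT and by 1.13 ± 0.16 in KO, the phosphatase Ptpn6 fell by 0.65 ± 0.18 in WT, and Jak1 fell by 0.89 ± 0.21 in KO. Between the days Tyk2 rose in SLEC by 0.61 ± 0.15 in WT and 0.47 ± 0.15 in KO, Ptpn6 rose by 0.70 ± 0.18 in WT, and Irf2, a factor that restrains interferon genes, rose by 0.50 ± 0.16 in KO. Socs3 fell by 3.98 ± 0.88 between the days in KO SLEC, again against those 8 counts. Both Ptpn6 calls involve WT SLEC day 14, where it stood at 620 and 805 CPM, against 364 to 558 CPM in the other libraries. B cell genes summed to 931 and 3280 CPM in those WT SLEC day 14 libraries, and their part in this was not tested.

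Of 12 genes that induce interferon, Ikbke, a kinase that activates IRF factors, rose in MPEC by 1.03 ± 0.17 in WT and 1.41 ± 0.18 in KO, and 0 fell. Irf3, its substrate, had -0.35 ± 0.18 and 0.03 ± 0.20 in MPEC against SLEC. Between the days 3 of the 12 fell in KO SLEC: Myd88, an adaptor of Toll-like receptors, by 0.75 ± 0.17, Ikbke by 0.74 ± 0.18 and Irf3 by 0.62 ± 0.19 (edgeR adjusted p = 0.006, 0.01 and 0.033). Falls between the days in KO SLEC were called for 9.50% of all genes. In WT SLEC Tlr7, Tlr9 and Tlr3 were called higher on day 14 (edgeR adjusted p = 0.021, 0.028 and 0.03), against 4.69% of all genes. The endosomal sensors Tlr7 and Tlr9 stood at 1.18 and 9.24 CPM and at 8.17 and 18.4 CPM in WT SLEC day 14, and the other 10 libraries held at most 1.44 and 4.15 CPM, the highest being WT MPEC replicate 1, which also held the third highest B cell sum, 445 CPM. Tlr3 stood at 0.883 and 2.72 CPM in WT SLEC day 14 and at most 0.227 CPM in the other 10. Tlr3 thus passed the filter on low counts only through the group in which it was called higher, so the filter favoured its call. The part of B cell RNA in these values was not tested. Of 10 ligands and other receptors, 3 passed the filter on low counts; Ifng, the type II ligand, had -0.48 ± 0.30 in WT and 0.31 ± 0.34 in KO in MPEC against SLEC, and fell by 1.18 ± 0.32 between the days in KO SLEC (edgeR adjusted p = 0.017).

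Of 33 tested further interferon-induced genes, 7 rose and 0 fell in MPEC in WT, and 5 rose and 0 fell in KO, with medians of 0.12 and 0.19. Among all genes 3.66% and 2.90% were called higher in MPEC, with medians of -0.00 in both genotypes. Ly6a rose by 1.43 ± 0.28 and 1.53 ± 0.30, Ddx60, a helicase that aids RNA sensing, by 1.55 ± 0.32 and 1.43 ± 0.34, and Rnf213 by 0.85 ± 0.18 and 0.83 ± 0.19. Ly6c2, an interferon-induced surface protein of effector and memory T cells, had 0.06 ± 0.16 and -0.06 ± 0.16. Between the days in SLEC, 0 of the 33 rose and 4 fell in WT, Ly6a among them, and 2 rose and 3 fell in KO. Among all genes 4.69% were called higher and 5.25% lower between the days in WT, and 7.70% and 9.50% in KO. Of 15 GTPase genes best known from interferon gamma, 4 rose in MPEC in WT and 3 in KO, and 0 fell. In WT 14 were positive and in KO 15, with medians of 0.35 and 0.53, against 49.5% and 49.1% of all genes. Gbp9 rose by 0.73 ± 0.20 and 0.88 ± 0.21, a value that is uncertain since guanylate-binding genes have close copies. Between the days in SLEC, 0 of the 15 rose and 1 fell in each genotype, Ifi47 in WT and Gbp4 in KO. Among the 5 lists, Ifngr2 was the gene called in a KO comparison. This chain of the interferon gamma receptor was lower in KO SLEC on day 14 (edgeR adjusted p = 0.022), where 0.539% of all genes were called. It stood at 3.46 and 9.05 CPM in WT SLEC day 14, at 0.101 and 0 CPM in KO SLEC day 14 and at most 0.715 CPM in the other 8 libraries. Ifngr2 thus passed the filter on low counts only through WT SLEC day 14, the WT side of this comparison, so the filter favoured its call. It was high where B cell genes summed to 931 and 3280 CPM, whose part in this was not tested.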

How the data were processed

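RNA of sorted OT-I cells was made into stranded SMART-Seq libraries, per the labels' protocols. The deposited values are whole-number read counts per gene in 12 libraries of 6 groups; the authors used bcl2fastq and STAR 2.6.1a with GRCm38, per the submitters' processing notes. How reads were assigned to genes, with which annotation and whether by strand, is not given in the sources used. The 39 genes, their roles and the pathway and marker lists were chosen with earlier results of these data known, as was the term for B cell RNA.

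Counts were filtered on low values with edgeR's filterByExpr over the 6 groups, which kept 14460 genes and at least 99.7% of each library's counts, and scaled with TMM factors (0.862 to 1.15). A quasi-likelihood model of the 6 groups (R 4.3.3, edgeR 4.0.16, robust, 6 residual degrees of freedom) was tested by contrasts, with Benjamini-Hochberg adjustment over all 14460 genes and a call at an adjusted p below 0.05. The standard error is the absolute log2 change divided by the square root of the F statistic. CPM uses the scaled library sizes; CPM per kb divides by the length of the union of exons. Positions and exon overlaps are from GENCODE on GRCm38, matched by gene identifier for all 39 members, and promoters from RefSeq. The model was tested on simulated counts.

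Any of the 39 members could be named. Called members are given in full, or the 3 with the largest rise where more than 6 were called, or the 2 with the smallest p where none was. From the pathway lists, preset genes and some of the called ones were named; 1 preset gene is not reported here. Total counts per library ran from 7603551 to 14026594; totals speak to counting error alone, because the sources used here name no molecular identifiers. The replicates of each group differed by more than sampling noise. Alternatives were DESeq2 1.42.0, other size factors, no filter and a stricter filter, the replicate number as a block, only the groups compared, a term for B cell RNA, an older edgeR quasi-likelihood fit and each library left out. No library was left out of the main results, and the deposited sample sheet, which holds no measurement, was not used.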

Additional observations from a re-analysis of the deposited data

How the results depend on the processing

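Of 199 counts of called members compared over 20 alternatives, 175 were within 1.5 times the reported count and 24 were not. In KO against WT each alternative gave 0 calls except no filter on low counts, which gave 1 in SLEC on day 7. For day 14 against day 7 in WT SLEC, the reported 2 became 4 with no filter, 1 with only the groups compared and 0 with a term for B cell RNA. For MPEC against SLEC, the WT count of 13 became 21 with only the groups compared and 5 with the B cell term. It became 8 with the older edgeR fit, which was chosen after seeing the data. The KO count of 8 became 13 with DESeq2, 3 with the B cell term and 5 with the older fit. In KO the B cell term was itself higher in MPEC than in SLEC. Leaving out 1 library at a time gave 0 to 4 for the WT days, 2 to 6 for the KO days, 4 to 15 for MPEC in WT, 3 to 10 for MPEC in KO, and 0 to 0 for each KO comparison. A lone remaining library was assumed to vary like the other groups. Calls over all genes are not given for the alternatives, so shifts in these counts are not read as particular to the members. Samd9l turned from -0.42 to 0.14 for KO against WT in SLEC on day 14, and from -0.54 to 0.08 for the difference of that effect between the days, with the B cell term; the cause was not tested. With the replicate number as a block, 11 members were called for MPEC against SLEC in WT, 8 in KO, 2 for the WT days, 3 for the KO days and 0 in each KO comparison. The numbers share only a name: between groups, the correlation of replicate 1 minus replicate 2 ran from -0.16 to 0.13, so they were not read as pairing samples. With 2 libraries a group and genes such as Oas2 at 4 counts in KO SLEC on day 14, small differences in low members were not detectable at this depth.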
